A study of Mus musculus with 10 samples.

Results

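The genes described here encode the semaphorins, ephrins, slits and netrins, the classical axon guidance cues, and the plexins, neuropilins, Eph receptors, Robo receptors and Unc5 receptors that bind them. They were chosen by gene symbol among genes with a protein-coding transcript, and 69 of the 45706 genes in the tables met the rule. Of these, 67 are guidance ligands or receptors. Unc50 and Unc5cl share only the letters of their symbols with the netrin receptors and are kept apart below. Epha6, an Eph receptor, had 2 reads over all libraries and was left out by the low-count filter, so 68 members were tested.

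Guidance cues were found as signals that steer growing axons, and they also set cell spacing, adhesion and migration in other tissues, fibroblasts and epithelia among them. Secreted cues (slits, netrins and class 3 semaphorins) diffuse or bind to matrix, whereas ephrins and most other semaphorins act at cell contacts. Slits bind Robo receptors, netrins bind Unc5 receptors and Dcc, class 3 semaphorins bind neuropilins that signal through plexins, and ephrins bind Eph receptor tyrosine kinases. Most of these receptors act on the cytoskeleton of the receiving cell.

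RNA was measured in mouse cells of mixed C57BL/6 and 129 background at 5 stages of induced reprogramming. Each stage had 2 libraries that the design text calls biological replicates. The p-values below set differences between stages against the spread between libraries of the same stage. That spread was small (biological coefficient of variation 3.75%) and does not hold differences between the source cells of different stages. MEFs were embryonic fibroblasts that carried an OKSM cassette (Oct4, Klf4, Sox2 and Myc) in Col1a1 and the M2rtTA transactivator in ROSA26, kept in MEF medium without doxycycline and not sorted. Day 3, day 6 and day 9 cells had the same genotype and were grown in ESC medium with doxycycline at 1 µg/ml and ascorbic acid at 50 µg/ml, so medium, ascorbic acid and cassette induction changed together between MEF and day 3. On day 3 the culture was taken unsorted. SSEA1-positive cells alone were taken on days 6 and 9, SSEA1 being a sugar epitope of early embryonic cells, so time and sorting cannot be told apart between day 3 and day 6. ESCs were the V6.5 line, for which no cassette is recorded, grown in ESC medium on irradiated feeder cells and not sorted. In bulk samples such as these, fewer cells of a type and less RNA per cell cannot be told apart.

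Libraries held 29585876 to 38275024 estimated reads, and 16137 to 18522 genes had at least 10 reads in a library. Levels are given as CPM, the reads of a gene scaled to library size with TMM factors, and between genes as TPM, which is also scaled by transcript length. The 12 fibroblast markers summed to 50200 to 51700 CPM in MEFs, 4630 to 4670 on day 3, 317 to 334 on day 6, 127 to 135 on day 9 and 4500 to 4640 in ESCs, with Lum at 0 reads on day 9. The 8 pluripotency markers summed to 4.63 to 5.13 CPM in MEFs, 226 to 246 on day 3, 385 to 412 on day 6, 541 to 554 on day 9 and 4840 to 4980 in ESCs, and none of them was at 0 at any stage. Pou5f1 (Oct4), which the cassette carries, alone gave 224 and 243 CPM of the day 3 sums and 323 and 296 CPM of the day 6 sums, and 6 of the 8 markers were under 1 CPM on day 3. Xist, the RNA made by the inactive X chromosome, stood at 0.739 and 0.793 CPM in MEFs, 930 to 1320 CPM in the 6 libraries of days 3 to 9 and 9.0 and 11.3 CPM in ESCs. Ddx3y, a gene of the Y chromosome, stood at 86.4 and 90.6 CPM in MEFs, 0.0538 to 0.176 CPM on days 3 to 9 and 26.1 and 26.8 CPM in ESCs. The MEF libraries and those of days 3 to 9 thus differed in sex-linked RNA as well as in treatment, and the part of that difference in the results was not tested.

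The summed level of the 67 ligands and receptors was 498 and 482 TPM in MEFs, 374 and 385 on day 3, 306 and 316 on day 6, 288 and 297 on day 9 and 183 and 176 in ESCs. The libraries of neighbouring stages did not overlap. Of the 68 members tested, 30 had their highest mean level in MEFs, 9 on day 3, 4 on day 6, 10 on day 9 and 15 in ESCs. The heat map of all members by library shows these groups by role.

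**Figure D1:**
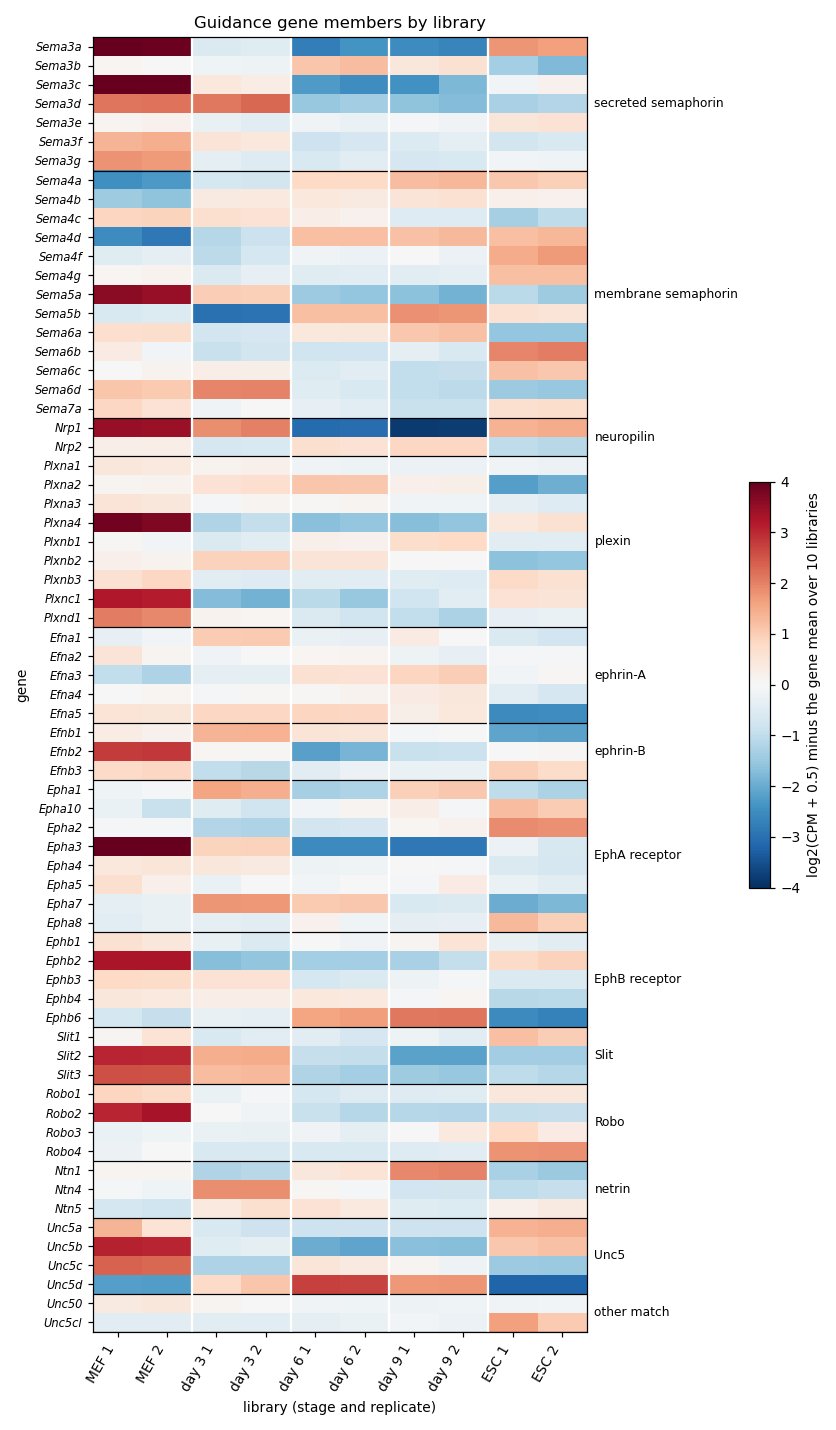
Heat map of the 68 tested members (rows, grouped by role) in the 10 libraries (columns, 2 per stage); colour is log2(CPM + 0.5) minus the mean of that gene over the 10 libraries, cut at 4 in either direction. Slit2, Slit3, Nrp1, Sema3a, Sema3c, Epha3 and Ephb2 are red in both MEF libraries, Unc5d and Ephb6 are red on days 6 and 9, and Epha2 is red in both ESC libraries.

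A gene was called changed where the edgeR quasi-likelihood test gave an adjusted p (Benjamini-Hochberg, over all 20165 genes tested) under 0.05 and the log2 fold change was 1 or more in size. From MEF to day 3, 10 of 68 members rose (14.7%, against 14.6% of all genes tested) and 28 fell (41.2%, against 14.5%; 29.1% of all genes changed in either direction). From day 3 to day 6, 15 members rose (22.1%, against 9.26% of all genes) and 18 fell (26.5%, against 10.2%; 19.5% in either direction). From day 6 to day 9, both sorted, 4 members rose (5.88%, against 5.18%) and 5 fell (7.35%, against 2.68%; 7.87% in either direction). ESCs stood above day 9 cells in 24 members (35.3%, against 18.6%) and below them in 17 (25%, against 14.3%; 32.9% in either direction). ESCs stood above MEFs in 17 members (25%, against 25.5%) and below them in 37 (54.4%, against 20.6%; 46.1% in either direction). The share of members that rose from MEF to day 3 or from MEF to ESC was thus near that of all genes, and the share that fell was above it.

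The median log2 fold change of the members was -0.57 from MEF to day 3, against 0.08 over all genes tested. It was 0.01 from day 3 to day 6 (0.03 over all genes), 0.04 from day 6 to day 9 (0), 0.31 from day 9 to ESC (0.00) and -1.34 from MEF to ESC (0.10). With members at 0 reads in a group set to a floor of 3 reads over that group, and those at or under 3 reads in both groups left out, the first median was -0.61 and the others stayed within 0.01 of these values. Neighbouring comparisons share a group, and both comparisons with MEF share the MEF libraries. The bar chart of the shares called sets members and all genes side by side.

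**Figure D2:**
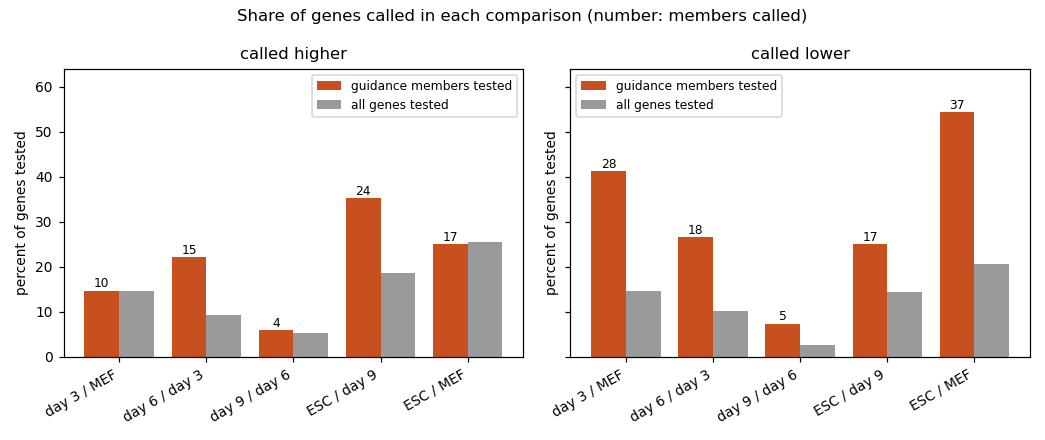
Percent of genes called higher (left) and lower (right) in the 5 comparisons, for the 68 guidance members (orange, with the number called) and all 20165 genes tested (grey). Among genes lower in ESCs than in MEFs the members stand at 54.4% and all genes at 20.6%, and among genes higher in ESCs than in MEFs at 25% and 25.5%.

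The upstream sequences of 4 members that turn up repeatedly below are shown because the study followed KLF4 binding and these sequences hold letters of its motif: Ephb2 and Plxnc1, which fell by day 3, Efnb1, which rose by day 3, and Epha2, which was highest in ESCs. Each is the 250 bases before the RefSeq start (GRCm38.p6), 5′ to 3′ on the strand of the gene, and overlaps no exon of the GENCODE M21 annotation. Capitals mark GGGNGTGG, searched on both strands, so that a match on the opposite strand appears as its reverse complement. The Ephb2 window is chr4:136836013-136836262 (minus strand), that of Epha2 chr4:141300971-141301220 (plus), that of Plxnc1 chr10:94944846-94945095 (minus) and that of Efnb1 chrX:99135811-99136060 (plus).
Ephb2: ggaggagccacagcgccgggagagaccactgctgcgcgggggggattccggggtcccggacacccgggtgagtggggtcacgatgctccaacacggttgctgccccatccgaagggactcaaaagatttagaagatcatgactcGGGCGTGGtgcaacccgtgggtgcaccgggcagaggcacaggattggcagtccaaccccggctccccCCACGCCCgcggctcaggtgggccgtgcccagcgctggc
Epha2: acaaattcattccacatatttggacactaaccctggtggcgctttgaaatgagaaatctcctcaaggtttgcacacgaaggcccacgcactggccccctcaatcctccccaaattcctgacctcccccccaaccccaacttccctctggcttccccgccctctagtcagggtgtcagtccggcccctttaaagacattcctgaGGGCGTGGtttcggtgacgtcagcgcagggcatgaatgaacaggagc
Plxnc1: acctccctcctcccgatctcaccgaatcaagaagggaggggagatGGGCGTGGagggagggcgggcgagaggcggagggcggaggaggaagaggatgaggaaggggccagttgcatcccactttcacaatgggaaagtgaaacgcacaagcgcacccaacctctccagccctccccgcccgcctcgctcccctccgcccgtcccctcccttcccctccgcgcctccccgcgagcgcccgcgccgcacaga
Efnb1: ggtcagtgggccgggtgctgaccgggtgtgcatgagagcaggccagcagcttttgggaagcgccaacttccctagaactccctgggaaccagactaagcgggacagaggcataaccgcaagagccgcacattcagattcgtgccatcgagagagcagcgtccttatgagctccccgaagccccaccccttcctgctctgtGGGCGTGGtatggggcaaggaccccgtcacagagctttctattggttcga
Counted from the start, the matches begin at -106 and -39 in Ephb2, -47 in Epha2, -205 in Plxnc1 and -50 in Efnb1. Among all members, 24 of 76 promoters in the table (31.6%; 60 genes matched by symbol, 23 of them with a match) held GGGNGTGG, against 15.9% of 32851 promoters. The median GC content of the same windows was 64.4% for members and 52.4% for all, and its part in that share was not tested. The E-box CACGTG was in 4 member promoters (5.26%, against 6.02% of all), the AP-1 letters TGANTCA in 3 (3.95%, against 6.75%) and the octamer ATGCAAAT in 0 (against 1.6%). None of these other letters is found in the 4 sequences above. Of the 23 tested members with GGGNGTGG, 4 rose and 7 fell from MEF to day 3, and of the 36 without it 5 rose and 16 fell. From MEF to ESC the counts were 7 and 9 with the letters and 9 and 22 without. A match is a description of the sequence and not a binding site.

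Among the secreted cues, the slits had the highest summed TPM in MEFs, and Slit2 and Slit3 fell by day 3 and again by day 6. Slit2 (chr5:47983138-48307733, plus strand, GRCm38) stood at 424 and 414 CPM in MEFs, 141 and 143 on day 3, 26.4 and 25.9 on day 6, 11.1 and 11.1 on day 9 and 19.1 and 19.0 in ESCs. Slit3 (chr11:35121224-35708507, plus strand) followed the same order down to day 9, at 354 and 343, 139 and 143, 25.3 and 22.6, 21.5 and 20.2, and 28.5 and 26.2 CPM. Both had their 2 MEF libraries above all other libraries and their 2 day 3 libraries above all later ones. Slit2 fell 2.36-fold from day 6 to day 9 (log2 fold change -1.24, SE 0.05, adjusted p = 3.1e-10 by edgeR), and its level in ESCs was 22-fold below MEFs (-4.46 ± 0.04, where ± gives the SE here and below, adjusted p = 3.5e-18). From day 3 to day 6, Slit2 fell by 2.45 and Slit3 by 2.56 on the log2 scale. Slit1, the member of the trio with a low level throughout (0.0907 to 1.65 CPM), was called lower on day 3 than in MEFs and higher in ESCs than on day 9. Its call between ESC and MEF (log2 fold change 1.10, adjusted p = 0.027) was lost without MEF replicate 1 (0.79, adjusted p = 0.18), without ESC replicate 1 (0.95, 0.15) and without ESC replicate 2 (1.24, 0.059).

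Of the Robo receptors, which transmit the repulsive slit signal, 2 of 4 fell from MEF to day 3 and none rose. Among all genes, 14.5% fell and 14.6% rose at that step. Robo2 stood at 10.4 and 12.5 CPM in MEFs, 0.835 and 0.68 on day 3, 0.206 and 0.0907 on day 6, 0.0964 and 0.0758 on day 9 and 0.177 and 0.187 in ESCs. Its ESC level was 61.7-fold below MEFs (log2 fold change -5.95 ± 0.30, adjusted p = 1.6e-10). By TPM, Robo2 led the Robos in MEFs and Robo1 in the other 4 stages. Robo1 stood at 28.6 and 26.6 CPM in MEFs, 9.44 to 14.9 CPM over days 3 to 9 and 21.5 in both ESC libraries. In CPM it was thus above Robo2 in MEFs too, and the TPM lead of Robo2 there rests on transcript length. Robo1 was called in none of the 5 comparisons. It was just under the fold minimum from MEF to day 3 (-0.99) and from day 9 to ESC (0.99). DESeq2 called both changes of Robo1, with 3 of the 4 Robos lower on day 3 than in MEFs. Robo4, the Robo of blood vessels, had 4 and 9 reads in MEFs, 0 on days 3 and 6, 1 and 2 on day 9 and 72 and 82 in ESCs. Robo3 stayed between 0.181 and 1.0 CPM, and its call between ESC and MEF (log2 fold change 1.65, adjusted p = 0.009) was lost without MEF replicate 1 (1.51, adjusted p = 0.058) and without ESC replicate 1 (1.22, 0.11). Summed in TPM, the slits exceeded the Robos 121 to 4.46 in MEFs, and 3.77 to 0.8 on day 9.

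The 3 netrins peaked at different stages. Ntn4, a laminin-binding netrin of basement membranes (chr10:93640681-93747207, plus strand), stood at 34.4 and 31.6 CPM in MEFs, 130 and 132 on day 3, 36.9 and 34.1 on day 6, 20.7 and 21.2 on day 9 and 17.3 and 18.5 in ESCs. Ntn1, the founding attractant (chr11:68209364-68400823, minus strand), stood at 34.8 and 34.5, then 13.7 and 14.5, 43.7 and 46.7, 123 and 127, and 12.6 and 11.2 CPM. Ntn4 was thus highest in both day 3 libraries and Ntn1 in both day 9 libraries, with no overlap with any other library. Ntn4 rose 3.98-fold from MEF to day 3 (log2 fold change 1.99 ± 0.05, adjusted p = 2.2e-13) while Ntn1 fell by 1.30. Ntn1 then rose by 1.68 to day 6 and by 1.47 ± 0.05 to day 9 (adjusted p = 5.4e-11), and ESCs stood 10.5-fold below day 9 cells (-3.39 ± 0.06, adjusted p = 3.1e-15). Ntn5 had 0 to 29 reads in a library and was called higher on day 3 than in MEFs, where it had 1 and 0 reads. In TPM, Ntn4 made up 92.4% of the netrin total on day 3 and Ntn1 78.0% on day 9.

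Among the Unc5 netrin receptors, Unc5b and Unc5d moved in opposite directions at every step from MEF to day 6. Unc5b, also an endothelial guidance receptor (chr10:60762593-60831581, minus strand), stood at 503 and 495 CPM in MEFs, 42.4 and 45.8 on day 3, 14.5 and 13.3 on day 6, 18.3 and 17.7 on day 9 and 126 and 133 in ESCs. Unc5d (chr8:28646717-29219636, minus strand) stood at 1.26 and 1.22, then 13.3 and 16.8, 53.4 and 52.6, 26.6 and 26.8, and 0.383 and 0.374 CPM. Unc5b was highest in MEFs and lowest on day 6, where Unc5d was highest, and no libraries of neighbouring stages overlapped for either gene. Unc5d rose 12.1-fold from MEF to day 3 (log2 fold change 3.60 ± 0.15, adjusted p = 2.7e-11) and by a further 1.82 to day 6, and ESCs stood 69.9-fold below day 9 (-6.13 ± 0.16, adjusted p = 2.2e-13). Unc5b fell by 3.5 to day 3 and by 1.66 to day 6, and ESCs stood 7.2-fold above day 9 (2.85 ± 0.05, adjusted p = 4.4e-15). Of the summed TPM of the 4 receptors, Unc5d held 0.15% and 0.153% in the MEF libraries, 63.3% and 65.9% on day 6 and 0.187% and 0.171% in ESCs. Unc5c, which stood at 24.1 and 22.7 CPM in MEFs and 1.53 and 1.54 on day 3, rose again to 6.09 and 5.6 CPM on day 6 (1.92 ± 0.15, adjusted p = 8.1e-08). Unc5a had 48 and 26 reads in MEFs, 0 to 3 reads in each library of days 3 to 9 and 62 and 72 in ESCs.

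**Figure D3:**
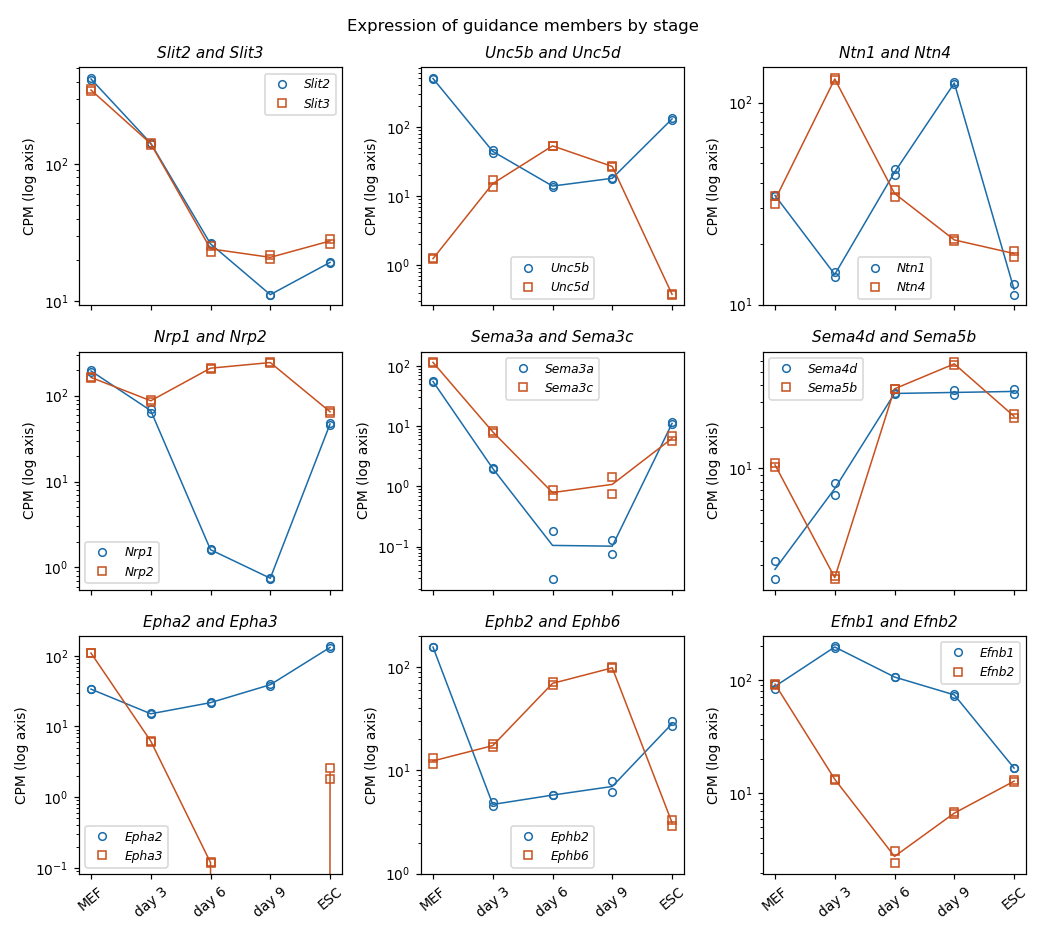
Level in CPM (log axis) of 18 members in the 5 stages, in 9 panels of 2 genes; open symbols are the 2 libraries of a stage and lines join stage means. Epha3 has 0 reads in both day 9 libraries and leaves the axis there; Ntn4 peaks on day 3 (130 and 132 CPM) and Ntn1 on day 9 (123 and 127), and Unc5b and Unc5d run opposite to each other up to day 6.

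The class 3 semaphorins, secreted ligands of the neuropilin and plexin complex, included 3 of 7 that fell from MEF to day 3 and none that rose. Among all genes, 14.5% fell and 14.6% rose. Sema3a, the prototype growth cone repellent (chr5:13125414-13602565, plus strand), stood at 57 and 53.1 CPM in MEFs, 1.91 and 2.04 on day 3, 0.0294 and 0.181 on day 6, 0.129 and 0.0758 on day 9 and 11.6 and 10.7 in ESCs. Sema3c stood at 114 and 113, then 8.32 and 7.72, 0.882 and 0.696, 0.739 and 1.41, and 5.6 and 6.92 CPM. For both genes the MEF libraries were highest, the libraries of days 6 and 9 overlapped near the floor, and the ESC libraries lay above those of days 6 and 9. Sema3a fell 27.8-fold to day 3 (log2 fold change -4.80 ± 0.12, adjusted p = 9.3e-14), and ESCs stood 108-fold above day 9 (6.76 ± 0.24, adjusted p = 5.3e-12), a comparison against 4 and 3 reads. Sema3c fell 10.1-fold from day 3 to day 6 (-3.34 ± 0.20, adjusted p = 2.8e-09), and ESCs stood 5.62-fold above day 9 (2.49 ± 0.19, adjusted p = 2.8e-08).

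Sema3d stood at 11 and 11.2 CPM in MEFs and 10.6 and 12.1 on day 3, with overlapping libraries, and then at 0.412 and 0.484 CPM on day 6, 25.2-fold lower (-4.65 ± 0.19, adjusted p = 5.2e-11). Sema3b, often silenced in tumours, went the other way at that step, from 9.99 and 9.9 CPM to 25.2 and 27.6. It was the leading class 3 semaphorin by TPM on days 3, 6 and 9. On day 3 it had fewer reads (371 and 335) than Sema3f (482 and 410) and Sema3d (395 and 408). The day 3 lead of Sema3b thus rests on transcript length. Sema3e stayed between 9.64 and 19.9 CPM in every library and was called in none of the 5 comparisons. All members of the class but Sema3e (6 of 7, against 20.6% of all genes) were lower in ESCs than in MEFs. Their summed level was 44.2 TPM in MEFs, 16 on day 3, 15.5 on day 6, 12.2 on day 9 and 8.83 in ESCs.

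The neuropilins, co-receptors for class 3 semaphorins and for VEGF, parted ways. Nrp1 (chr8:128358604-128503363, plus strand) stood at 197 and 190 CPM in MEFs, 63.5 and 70.3 on day 3, 1.59 and 1.63 on day 6, 0.739 and 0.758 on day 9 and 45.6 and 48.0 in ESCs. Nrp2 (chr1:62703285-62818695, plus strand) stood at 161 and 165, then 85.3 and 89.2, 212 and 205, 242 and 244, and 66.5 and 63.3 CPM. Nrp1 was lowest in the day 9 libraries, where Nrp2 was highest. From day 3 to day 6, Nrp1 fell 41.4-fold (log2 fold change -5.37 ± 0.09, adjusted p = 5.4e-15) while Nrp2 rose by 1.26. ESCs stood 62.1-fold above day 9 cells for Nrp1 (5.96 ± 0.11, adjusted p = 3.7e-15) and below them by 1.91 on the log2 scale for Nrp2. Nrp1 made up 57.6% and 56.1% of neuropilin TPM in the MEF libraries, 0.335% and 0.34% on day 9 and 42.8% and 45.4% in ESCs. Library-size scaling in place of TMM left 1 of the 2 neuropilins called lower in ESCs than in MEFs.

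The plexins, the signalling receptors for semaphorins, had 4 of 9 members that fell from MEF to day 3 and none that rose. Of all genes, 14.5% fell and 14.6% rose. Plxnc1 (chr10:94790866-94944835, minus strand) stood at 21.4 and 20.7 CPM in MEFs, 0.215 and 0.148 on day 3, a mean of 0.49 ± 0.222 (SD, n = 2) on day 6, 0.868 and 1.29 on day 9 and 3.09 and 2.96 in ESCs. Plxna4 stood at 34.8 and 31.9, then 0.565 and 0.769, a mean of 0.299 ± 0.0482 (SD, n = 2), 0.257 and 0.328, and 2.8 and 3.26 CPM. Both were highest in MEFs and next highest in ESCs, with day 3 to day 9 libraries below both. Plxnc1 fell 113-fold by day 3 (log2 fold change -6.82 ± 0.26, adjusted p = 1.5e-11), the largest fall at that step among members that reached a mean of 5 CPM, and Plxna4 fell 50-fold (-5.65 ± 0.16, adjusted p = 3.6e-13). Between day 3 and day 6 the calls of both rested on single libraries. That of Plxnc1 (1.41, adjusted p = 0.013) was lost without day 3 replicate 2 (1.16) or day 6 replicate 1 (0.84). That of Plxna4 (-1.14, adjusted p = 0.006) was lost without the same libraries (-0.93 and -1). The Plxnc1 calls at this step and from day 6 to day 9 were also lost with the length offset. Between day 6 and day 9, Plxnc1 (1.15, adjusted p = 0.0086) was lost without day 6 replicate 2 (0.75, adjusted p = 0.1) or day 9 replicate 2 (0.81, 0.13).

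Plxnb2, a receptor of class 4 semaphorins, was the leading plexin at every stage by TPM. Its level was 476 and 457 CPM in MEFs, 785 and 789 on day 3, 599 and 591 on day 6, 412 and 413 on day 9 and 134 and 143 in ESCs. It held 67.6% of plexin TPM in MEFs, 85.7% on day 3 and 55.8% in ESCs. Its difference from MEF to day 3 (log2 fold change 0.75 ± 0.03) was under the fold minimum, and ESCs were lower than day 9 cells by 1.58. Plxna1, which pairs with neuropilins, ranged from 164 to 268 CPM and was called in none of the 5 comparisons. Plxna2 peaked on day 6 (69.9 and 68.4 CPM) and stood at 6.63 and 7.9 CPM in ESCs. The X-linked plexins were Plxna3, at 18.6 to 39.2 CPM and called in none of the comparisons, and Plxnb3, at 0.0505 to 0.915 CPM. From MEF to ESC, Plxna3 was at -0.95 on the log2 scale and was called with DESeq2 and with protein-coding transcripts alone.

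The membrane semaphorins, the role with the most members, changed in both directions. From MEF to day 3, 3 of 13 rose and 4 fell (14.6% and 14.5% of all genes). From day 3 to day 6, 5 rose and 2 fell (9.26% and 10.2% of all genes). ESCs stood above MEFs in 8 and below them in 4 (25.5% and 20.6% of all genes). With an offset for transcript length, Sema4f, Sema5b and Sema6c were no longer called between ESC and MEF, which left 5 above. No membrane semaphorin was called between day 6 and day 9, where 7.87% of all genes were called in either direction. The ephrin-A, EphB, Robo, Unc5 and class 3 semaphorin genes had no call at that step either. Sema4d, a ligand of plexin B receptors (chr13:51685529-51793747, minus strand), stood at 2.14 and 1.59 CPM in MEFs, 6.41 and 7.86 on day 3, 34.9 and 34.7 on day 6, 33.9 and 37 on day 9 and 34.3 and 37.8 in ESCs. Sema4a stood at 0.997 and 1.16, then 4.55 and 4.43, 13.6 and 13.7, 18.7 and 19.9, and 16.6 and 15.4 CPM. Both lay lowest in MEFs, with day 3 libraries between those of MEFs and of day 6, and Sema4d did not separate day 6, day 9 and ESC libraries. Sema4d rose 4.89-fold from day 3 to day 6 (log2 fold change 2.29 ± 0.09, adjusted p = 5.7e-11), and ESCs stood 19.6-fold above MEFs for Sema4d (4.29 ± 0.13, adjusted p = 3.3e-13) and 14.7-fold for Sema4a (3.88 ± 0.12, adjusted p = 6.2e-13). The earlier change of Sema4d, 3.86-fold from MEF to day 3 (1.95 ± 0.16, adjusted p = 7.5e-08), was not called with an offset for transcript length (0.74, adjusted p = 0.058), and its TPM values overlapped at that step (0.842 and 0.492 against 0.793 and 1.4). The direction of Sema4a from MEF to day 3 turned when only protein-coding transcripts were summed. Sema4b was at 14 and 12.2 CPM in MEFs and 43 to 58.5 CPM in every other library.

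Sema5a and Sema5b, a pair with thrombospondin repeats, differed. Sema5a stood at 122 and 112 CPM in MEFs, 19.1 and 18.6 on day 3, 3.15 and 2.9 on day 6, 2.67 and 2.2 on day 9 and 4.21 and 3.18 in ESCs. Sema5b stood at 10.3 and 10.9, then 1.59 and 1.66, 37.5 and 37.8, 58.4 and 55.6, and 24.7 and 23 CPM. Sema5a was highest in MEFs and Sema5b on day 9, and both fell from MEF to day 3. ESCs stood 31.7-fold below MEFs for Sema5a (log2 fold change -4.99 ± 0.09, adjusted p = 2.7e-15), and Sema5b rose 23.2-fold from day 3 to day 6 (4.53 ± 0.09, adjusted p = 2.1e-14). Sema5b made up 47.6% and 48.2% of membrane semaphorin TPM in the day 9 libraries and 2.56% and 3.08% on day 3. In CPM it did not stand apart from Sema4b on day 9, with highest libraries at 58.4 and 58.5. The TPM share of Sema5b thus rests in part on transcript length. Sema4f stood at 0.485 to 1.54 CPM up to day 9 and at 5.19 and 6.17 in ESCs, 5.66-fold above MEFs (2.50 ± 0.25, adjusted p = 4.2e-07). With the length offset that value was 1.22 (adjusted p = 0.12). Sema4f rose by 1.07 between day 3 and day 6 (adjusted p = 0.0056), and this call was lost without day 3 replicate 1 (0.78, adjusted p = 0.062). Sema6c was 1.06 above MEFs in ESCs and fell under the fold minimum without MEF replicate 1 (0.98).

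Ephrins are membrane-bound ligands, those of class A held by a lipid anchor and those of class B spanning the membrane. Efnb1, an X-linked gene (chrX:99136130-99148991, plus strand, promoter above), stood at 91.5 and 83.9 CPM in MEFs, 193 and 197 on day 3, 107 and 105 on day 6, 71.7 and 75.8 on day 9 and 16.8 and 16.6 in ESCs. Efnb2, an arterial ephrin (chr8:8617434-8661242, minus strand), stood at 90.8 and 92.9, then 13.3 and 13.2, 2.44 and 3.12, 6.56 and 6.82, and 12.6 and 13 CPM. Efnb1 was highest in both day 3 libraries, whereas Efnb2 was highest in MEFs and lowest on day 6. Efnb1 rose from MEF to day 3 by 1.16 ± 0.04 on the log2 scale (adjusted p = 9.6e-12), between the groups that also differed in Xist and Ddx3y, and ESCs stood below day 9 by 2.15. Efnb2 fell by 2.79 to day 3 and by 2.26 to day 6 and rose 2.41-fold from day 6 to day 9 (1.27 ± 0.11, adjusted p = 4.6e-07). In TPM, Efnb1 made up 55.3% of the ephrin-B total in MEFs and 97.2% on day 6.

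Of the 5 ephrin-A genes, Efna4 led at every stage by mean TPM, though Efna3 was above it in ESC replicate 2 (4.0 against 3.33). In CPM, Efna4 stood below Efna5 in MEFs (mean 15.6 against 21.5), on day 3 (15.1 against 26.7) and on day 6 (16.2 against 27.0). Its TPM lead at those stages thus rests on transcript length. Efna4 and Efna2 were called in none of the 5 comparisons. Efna5 stood at 21.8 and 21.1 CPM in MEFs, 26.5 and 27 on day 3, 27.4 and 26.6 on day 6, 17.6 and 20.2 on day 9 and 2.12 and 2.27 in ESCs. Its ESC libraries lay apart from the other 8, 8.62-fold below day 9 (log2 fold change -3.11 ± 0.10, adjusted p = 1.7e-12). Efna1, a ligand of EphA2 induced in blood vessels, was called higher on day 3 (9.15 and 9.31 CPM) than in MEFs (3.32 and 3.93) and lower again on day 6 (3.5 and 3.3). Efna3 was called higher on day 6 than on day 3, at 1.02 on the log2 scale, and fell under the fold minimum without day 3 replicate 2 or day 6 replicate 1 (0.99 in both cases).

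Among the EphA receptors the leading gene by TPM was Epha3 in MEFs and Epha2 on day 9 and in ESCs. On day 3 Epha1 (5.74 and 5.52 TPM) and Epha7 (5.18 and 6.07) had the same mean, 5.63, and their order differed between libraries. On day 6 Epha7 (4.83 and 3.45 TPM) was above Epha2 (3.63 and 3.59) in replicate 1 but not in replicate 2. Epha3 (chr16:63543534-63864175, minus strand) stood at 110 and 108 CPM in MEFs and 6.11 and 6.3 on day 3, and had 4 reads in each day 6 library, 0 in each day 9 library and 87 and 68 in the ESC libraries. Epha2, an ephrin-A1 receptor of epithelial and pluripotent cells (chr4:141301240-141329384, plus strand, promoter above), stood at 33.4 and 33.9 CPM in MEFs, 15.4 and 14.9 on day 3, 21.3 and 22.2 on day 6, 37.6 and 40.2 on day 9 and 135 and 128 in ESCs. Epha3 was highest in MEFs and Epha2 in ESCs, each without overlap with any other stage. Epha3 fell 50.5-fold from day 3 to day 6 (log2 fold change -5.66 ± 0.24, adjusted p = 3.1e-10), and ESCs stood 50-fold below MEFs (-5.64 ± 0.09, adjusted p = 4.7e-15). ESCs stood 3.89-fold above MEFs for Epha2 (1.96 ± 0.05, adjusted p = 5.9e-14), which held 81.3% and 81.0% of EphA TPM in the ESC libraries and 13.2% and 12.4% on day 3. The fall of Epha3 from 4 reads to 0 between day 6 and day 9 was called (adjusted p = 0.012) but not without day 9 replicate 2 (0.074).

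Epha7 and Epha1 peaked on day 3. Epha7 (chr4:28813131-28967499, plus strand) stood at 11.1 and 12.1 CPM in MEFs, 51.9 and 50.8 on day 3, 31.4 and 31.7 on day 6, 9.48 and 9.77 on day 9 and 3.39 and 3.95 in ESCs. Epha1, an epithelial Eph receptor (chr6:42358487-42373268, minus strand), stood at 10.9 and 11.9, then 37.9 and 35.1, 4.64 and 5.02, 24.4 and 27, and 5.83 and 4.91 CPM. Epha7 went down in steps after day 3, whereas Epha1 had a low point on day 6 and a second high on day 9. Epha7 rose 4.42-fold from MEF to day 3 (log2 fold change 2.14 ± 0.06, adjusted p = 9.1e-13) and fell 3.27-fold from day 6 to day 9 (-1.71 ± 0.07, adjusted p = 2.1e-10). Epha1 rose 5.33-fold from day 6 to day 9 (2.41 ± 0.10, adjusted p = 2.6e-10), where the 8 epithelial markers went from 263 to 268 CPM summed to 1360 to 1410, with none at 0; the part of that change was not tested. The fall of Epha1 from MEF to ESC (-1.09) was under the fold minimum without ESC replicate 2 (-0.98).

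Epha4 ranged from 18.8 to 41.9 CPM and was lower in ESCs than in MEFs by 1.09. Epha5, Epha8 and Epha10 stayed at or under 1.65 CPM. The call of Epha5 on day 3 (-1.05, adjusted p = 0.049) was lost without day 3 replicate 1 (-0.80, adjusted p = 0.24), day 3 replicate 2 (-1.32, 0.067) or MEF replicate 1 (-0.66, 0.32), and in ESCs (-1.50, adjusted p = 0.0082) without ESC replicate 2 (-1.32, 0.063) or MEF replicate 1 (-1.12, 0.087). That of Epha8 from day 3 to day 6 (1.87, adjusted p = 0.027) was lost without day 3 replicate 1 (adjusted p = 0.082), day 3 replicate 2 (0.13) or day 6 replicate 1 (0.23), and that of Epha10 from day 9 to ESC (1.60, adjusted p = 0.027) without day 9 replicate 2 (0.16), ESC replicate 1 (0.12) or ESC replicate 2 (0.058). Of the 8 EphA receptors tested, 2 were higher and 3 lower on day 3 than in MEFs (14.6% and 14.5% of all genes). In ESCs against MEFs, 3 were higher and 5 lower (25.5% and 20.6% of all genes). With library-size scaling in place of TMM these counts were 2 and 1, and 3 and 3.

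Among the EphB receptors, Ephb2 was highest in MEFs and Ephb6 on day 9. Ephb2 (chr4:136647539-136835988, minus strand, promoter above), a receptor of ephrin-B ligands in neural and intestinal tissue, stood at 155 CPM in both MEF libraries, 4.47 and 4.88 on day 3, 5.79 and 5.72 on day 6, 6.11 and 7.83 on day 9 and 26.8 and 29.7 in ESCs. Ephb6, a member of the family without kinase activity (chr6:41605482-41620509, plus strand), stood at 13.2 and 11.4, then 17.8 and 16.8, 67 and 71.4, 96.7 and 98.7, and 3.3 and 2.91 CPM. No other library reached the day 9 level of Ephb6, and Ephb2 stayed under 8 CPM from day 3 to day 9. Ephb2 fell 33.3-fold from MEF to day 3 (log2 fold change -5.06 ± 0.08, adjusted p = 1.4e-15). Ephb6 rose 4.0-fold from day 3 to day 6 (2.00 ± 0.06, adjusted p = 2.9e-12), and ESCs stood 31.5-fold below day 9 (-4.98 ± 0.08, adjusted p = 1.5e-15). Of EphB TPM, Ephb6 held 11.4% and 13.9% in the MEF libraries, 73.2% and 74.4% on day 9 and 7.78% and 10.5% in ESCs. Its day 9 lead was smaller in CPM, where Ephb4 stood at 83.3 and 91.2 against 96.7 and 98.7. The TPM share of Ephb6 thus rests in part on transcript length. All 5 EphB genes were lower in ESCs than in MEFs, against 20.6% of all genes. Ephb4, a venous receptor, went from 119 and 115 to 39.5 and 41.1 CPM. Ephb3 went from 59.2 and 57.5 to 22.7 and 22.8 CPM, and Ephb1 stayed under 1 CPM throughout. The call of Ephb1 between day 9 and ESC (-1.64, adjusted p = 0.0091) was lost without day 9 replicate 2 (adjusted p = 0.12) or ESC replicate 2 (0.068).

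**Figure D4:**
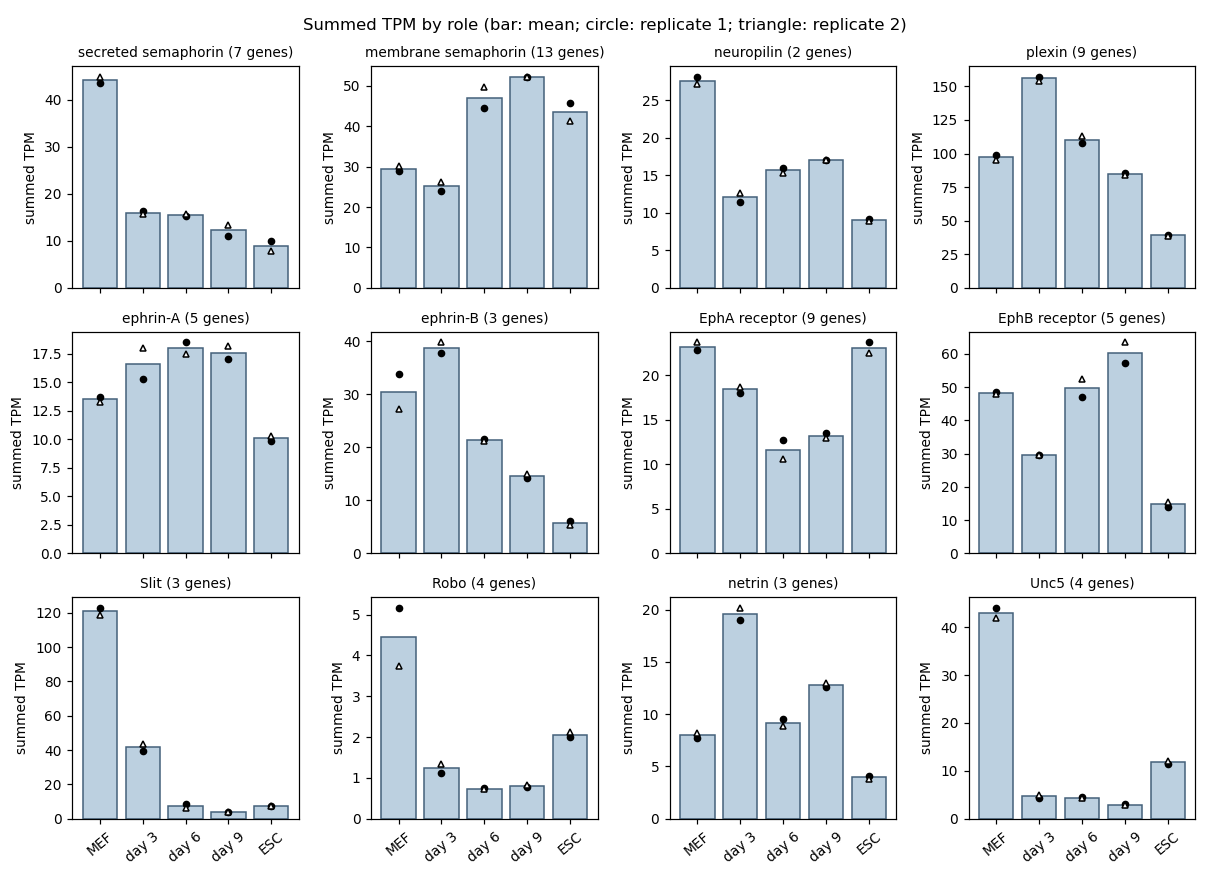
Summed TPM of the members of each role in the 5 stages; bars are the mean of 2 libraries and symbols the libraries, and each panel has its own axis from 0. Slit and Unc5 totals are highest in MEFs (121 and 43 TPM), plexin, ephrin-B and netrin totals on day 3 (156, 38.8 and 19.6) and membrane semaphorin and EphB totals on day 9 (52.2 and 60.4).

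Summed by role, the stages differed in which cue was most abundant. Slits led the ligands in MEFs with 121 TPM, ahead of class 3 semaphorins (44.2), ephrin-B (30.5) and membrane semaphorins (29.5). At day 9 membrane semaphorins led with 52.2 TPM, and slits stood at 3.77. Among the receptors, plexins led at every stage, from 156 TPM on day 3 to 39.1 in ESCs, and EphB receptors came next on day 9 with 60.4. The EphA total was 23.2 TPM in MEFs, 11.6 on day 6 and 23.1 in ESCs, with Epha2 in place of Epha3 as its main gene. These sums are dominated by a few genes, as the shares above show, rest on transcript length as well as reads, and carry no test.

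Some members were above both end points on the way, which is called here only where they passed the test against MEF and against ESC. At day 3 these were Efna1, Efnb1, Epha1, Epha7, Ntn4 and Unc5d (6 of 68, 6.36% of all genes), on day 6 Epha7, Ephb6, Sema3b and Unc5d (4, 7.49% of all genes) and on day 9 Epha1, Ephb6, Ntn1, Sema5b and Unc5d (5, 8.17% of all genes). These shares of the members were near those of all genes. Unc5d was above both at all 3 times. More members were below both end points, in shares above those of all genes: 13 of 68 on day 3 (6.65% of all genes), 18 on day 6 (8.74%) and 17 on day 9 (8.48%). Efnb3, Plxnb3, Robo4, Sema6b, Slit1 and Unc5a were among them at all 3 times but stayed under a mean of 5 CPM at every stage. Those on day 3 included Ephb2, Plxnc1, Plxna4, Sema3a and Unc5b, all highest in MEFs and higher again in ESCs, together with Epha2, which was higher in ESCs than in MEFs.

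Between day 9 and ESC, the plot of all members in that comparison shows both directions within most roles. Members highest in MEFs did not all move alike here. Ephb4 (-1.11) and Unc5c (-1.75) were called lower in ESCs than on day 9, and Slit2, Slit3, Sema4c, Epha4 and Ephb3 were not called. Some secreted cues and receptors high in MEFs were among the genes higher in ESCs: Sema3a, Sema3c, Nrp1, Plxna4, Plxnc1, Ephb2, Epha3 and Unc5b. Fibroblast markers moved with them, at 8.96% of their summed MEF level in ESCs (1.11% to 14.0% for the 12 markers) and 0.257% on day 9, and the ESCs had been grown on feeder cells. As a percentage of the MEF level, ESCs had 26.0% for Unc5b, 24.1% for Nrp1, 20.2% for Sema3a, 18.2% for Ephb2 and 14.4% for Plxnc1, above the highest fibroblast marker, and 13.9% for Efnb2, 9.07% for Plxna4, 7.86% for Slit3, 5.51% for Sema3c, 4.55% for Slit2 and 2.01% for Epha3, within the range of the markers. The part of fibroblast RNA in these values was not tested. Epha2, at 389% of its MEF level, and Sema4d, Sema4a, Sema4b, Sema4g and Sema6b, all called higher in ESCs than in MEFs, lay outside that range, as did Sema4f, Sema5b and Sema6c, whose calls were lost with the length offset.

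**Figure D5:**
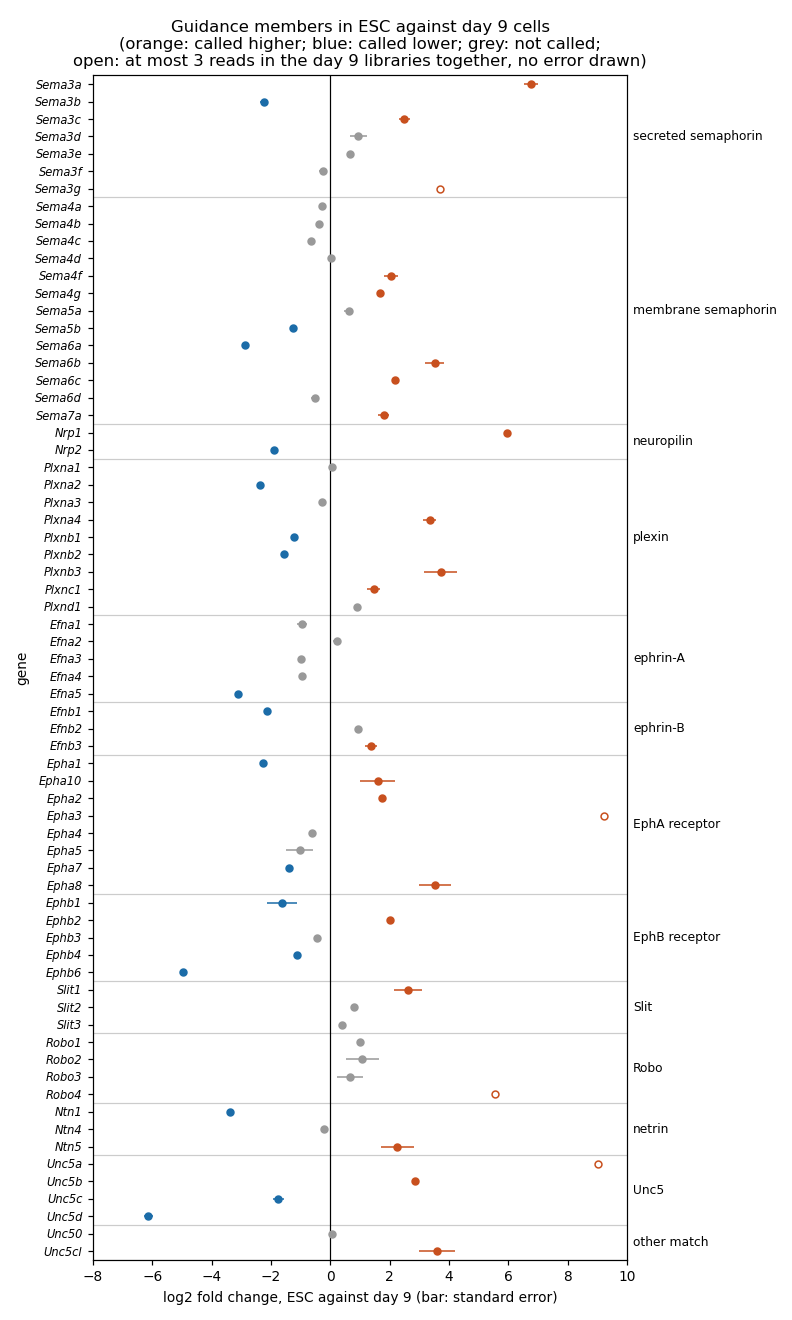
Log2 fold change of ESC against day 9 for the 68 tested members by role, with the standard error of the edgeR fit as a bar; orange points are called higher in ESC (24), blue points called lower (17) and grey points not called. Open circles mark Epha3, Robo4, Sema3g and Unc5a, whose day 9 libraries held at most 3 reads together, so that their position depends on the prior count of the fit; Nrp1 lies at 5.96 and Unc5d at -6.13.

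Other guidance genes outside the rule were read from 3 lists. Of 27 further ligands, receptors and receptor partners, 3 rose and 11 fell from MEF to day 3 (median log2 fold change -0.78; 14.6% of all genes were called higher and 14.5% lower). Between day 3 and day 6, 1 rose and 10 fell (median -0.44; 9.26% and 10.2% of all genes). From day 6 to day 9, 5 rose and 0 fell, although the median of the list was -0.13 (5.18% and 2.68% of all genes). In ESCs against MEFs, 5 were higher and 14 lower (median -1.18; 25.5% and 20.6% of all genes). Flrt3, an Unc5 ligand, fell by 4.40 to day 3, as did Plxdc2 by 1.38, and Lrig1 rose by 1.29. In ESCs against MEFs, Cntn2 (3.59) and Plxdc1 (2.66) were higher and Flrt3 (-3.70) and the Neogenin ligand Rgma (-3.19) lower. Of 61 tested genes that act downstream of guidance receptors, 8 rose and 12 fell to day 3 (median 0.08, the same as over all genes), and 10 were higher and 22 lower in ESCs than in MEFs (median -0.70). The collapsin response mediators, phosphoproteins of semaphorin signalling, split: Dpysl5 rose by 3.47 and Crmp1 fell by 6.67 to day 3, while in ESCs Dpysl5 (3.52) and Crmp1 (2.21) were above and Dpysl2 (-2.45) below MEFs. Srgap3, a slit-Robo GTPase-activating protein, rose by 2.59 to day 3, Mical2 fell by 3.30, and Farp1 was lower in ESCs than in MEFs (-2.47).

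Some members lie next to each other in the genome, and neighbours did not always move alike. Robo4 and Robo3 are 0.554 kb apart on chromosome 9, and Efna1, Efna3 and Efna4 lie on chromosome 3 with gaps of 32.8 and 10.4 kb. Of the ephrin trio, Efna1 fell from day 3 to day 6 by 1.44, Efna3 rose by 1.02 and Efna4 had a value of 0.10 on the log2 scale, which was not called. Sema3b and Sema3f, 72.3 kb apart on chromosome 9, also split at that step, with values of 1.41 and -1.30 on the log2 scale. The length offset removed both of those calls. Ephb2 and Epha8 are 93.4 kb apart on chromosome 4, and Epha8 stayed at or under 1.38 CPM in every library.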

How the data were processed

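RNA from 10 libraries (5 stages, 2 each) had been made into stranded mRNA libraries and sequenced as single reads, per the labels' protocols. The authors deposited, per transcript, an estimated count of reads, TPM (reads scaled by effective transcript length and by the library's sum) and the effective length, per the file headers. Per the submitters' processing notes, the quantifier was Salmon 0.8.2 and the build mm10; the annotation release is not given in the sources used here. Salmon divides reads shared by transcripts or close paralogs between them, so low members of these families are uncertain to that extent.

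From the deposited tables, estimated counts were summed per gene over 109617 transcripts, rounded and filtered (edgeR filterByExpr, minimum count 10, minimum total 15), which left 20165 genes. One edgeR 4.0.16 model (R 4.3.3) held a mean for each stage over the 10 libraries, with TMM scaling, the quasi-likelihood test and Benjamini-Hochberg adjustment. The biological coefficient of variation was 3.75%. Every member could be named. Full values were given for members called, with a mean of at least 5 CPM, both libraries apart and among the 4 largest rises or falls of a comparison; other members named with values were chosen after these were seen. Marker lists were fibroblast, pluripotent, epithelial, endothelial, neural, macrophage, keratinocyte and muscle. Members and lists were chosen with earlier results of these data known. Alternatives were DESeq2 1.42.0, library-size scaling, other count filters, a transcript-length offset, protein-coding transcripts alone, a replicate block and leaving out each library. Coordinates are from GENCODE M21 (GRCm38), matched by gene. The fit was tested on simulated data. Protein sequences were not used here.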

Additional observations from a re-analysis of the deposited data

How the results depend on the processing

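All 188 alternative values of the 16 member counts lay within 1.5 times the reported count, and 405 of 407 alternative values of the 37 gene results given with full statistics (the naming rule is stated with the processing) kept their direction and call. Both that lost the call did so with the transcript-length offset: Sema4d from MEF to day 3 (0.74) and Sema4f from MEF to ESC (1.22). None of these 37 reversed. The naming rule took called changes of large size with libraries apart, so that most would keep their call could be foreseen. Their count therefore does not bear on the calls of other members. Outside the 37, Sema4a from MEF to day 3 turned with protein-coding transcripts alone. That setting also lost the calls of Epha5 and Plxnb3 for day 3 against MEF, Efna3 for day 6 against day 3, Plxnb3 for ESC against day 9 and Robo3 and Slit1 for ESC against MEF. The length offset also lost Epha5 (day 3 against MEF), Plxnc1, Sema3b, Sema3f and Sema4f (day 6 against day 3), Plxnc1 (day 9 against day 6), Epha10 (ESC against day 9) and Sema5b and Sema6c (ESC against MEF). Leaving out 1 library gave 10 to 10 members higher and 28 to 29 lower from MEF to day 3, 11 to 14 and 17 to 18 from day 3 to day 6, 3 to 4 and 4 to 6 from day 6 to day 9, 23 to 26 and 17 to 20 from day 9 to ESC, and 14 to 17 and 35 to 38 from MEF to ESC. The stages share replicate numbers, but the correlation between deviations of libraries with the same number averaged 9.9e-05 (10 pairs of stages, -0.02 to 0.022), so the numbers were not taken as pairs. With the replicate number as a block, the counts were 10 and 27, 16 and 18, 4 and 5, 24 and 17, and 17 and 37. DESeq2 added Nrp2, Robo1 and Sema3f as lower from MEF to day 3 and lost Epha5. From day 3 to day 6 it lost Efna3 and Epha8. From day 9 to ESC it added Efnb2, Robo1 and Sema3d as higher and lost Epha10 and Ephb1. From MEF to ESC it added Plxna3 as lower and lost Robo3, Sema6c and Slit1. With library-size scaling the median over all genes was 0.285 (log2) for day 3 against MEF, 0.102 for day 6 against day 3 and 0.438 for ESC against MEF, and the EphA and neuropilin counts differed as given above. The cause was not tested. Members under about 1 CPM, such as Slit1, Robo3, Epha5, Epha8, Epha10 and Ephb1, rest on few reads, and each lost a call without at least 1 library.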

Other observations

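The VEGF ligands and receptors, which share the neuropilins with class 3 semaphorins, were mostly lower on day 3 than in MEFs. Of 8 genes tested, 0 rose and 6 fell from MEF to day 3 (median log2 fold change -3.05; 14.6% and 14.5% of all genes rose and fell). In ESCs, 5 were higher and 1 lower than on day 9 (median 3.16; 18.6% and 14.3% of all genes), where 11 of 12 fibroblast markers were higher too; their part was not tested. Flt1, a VEGF receptor, stood at 159 and 153 CPM in MEFs, 4.55 and 3.55 on day 3, 0.647 and 0.605 on day 6, 1.51 and 1.44 on day 9 and 35.3 and 33.1 in ESCs. Pgf, its ligand, fell by 5.63 from MEF to day 3, and Figf was lower in ESCs than in MEFs (-3.43).

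Markers of other cell types also differed between stages. The 6 endothelial markers summed to 14.6 to 17.7 CPM in MEFs and 132 to 136 on day 3, where 3 of them rose and 2 fell. The 6 neural markers summed to 100 to 101 and 7.3 to 8.04 CPM, but of the 5 tested 2 rose and 2 fell, and their median log2 fold change was 0.57. The 5 macrophage markers summed to 10.5 to 10.9 CPM in MEFs and 79.6 to 81.9 in ESCs. Of these, 2 were called higher in ESCs and 0 lower, with a median log2 fold change of 0.60. The 4 muscle markers summed to 123 to 129 CPM in MEFs and 63 to 69.9 in ESCs, with 0 called higher and 3 lower. The 4 keratinocyte markers summed to 2.07 to 2.74 CPM in MEFs and 28.9 to 29.8 on day 9, where Krt5 and Trp63 were under 1 CPM. The part of the markers in the member results was not tested.

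The share of reads on single transcripts varied within stages for some members. Epha4-201, a coding transcript of 6328 bases, held 6.07% and 51.5% of Epha4 reads in the 2 day 6 libraries and 5.77% and 58.1% on day 9. Epha4-002, labelled as a nonsense-mediated decay transcript of 6315 bases, held 89.5% and 45.7%, and 88.6% and 39.0%. The estimated split of Epha4 reads thus differed between replicates, while its gene level was 26.0 and 26.6 CPM on day 6. The part of the division of shared reads by Salmon in that split was not tested.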
